A study of Mus musculus with 2 samples.

Results

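The expression of 10 genes of the Notch pathway was followed through single cells of transgenic mouse embryos taken at E11.5, in mid-gestation. They were the receptors Notch1, Notch2 and Notch3, the ligands Dll1, Dll3, Jag1 and Jag2, and the transcription factors Hes1, Hes5 and Hes6. The 10 genes were chosen by name, and all 10 were found once among the 21937 gene features measured. The embryos carried a piggyBac transgene with EGFP under CAG, a promoter active in most tissues, linked to a DNA barcode, and the methods describe fertilized eggs from C57BL/6J oocytes and sperm. The founder generation gave suspensions F0_8 and F0_9, 1 embryo each. The F1 generation gave F1_1, also 1 embryo, and F1_mix, in which cells of F1 embryos were mixed as an artificial mosaic, so all suspensions carried the transgene and none was a control without it. The 4 suspensions were tagged with multiplexing oligos and run as 1 droplet library. No embryo was prepared again, so differences between suspensions hold both the embryo and the preparation.

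Notch receptors are cut when a ligand on a neighbouring cell binds them, and the freed intracellular part joins the DNA-binding protein RBPJ to switch on targets such as Hes1 and Hes5, repressors that hold neural cells in a progenitor state. In the embryonic nervous system, cells that begin to form neurons switch on proneural factors and the ligand Dll1, which activates Notch in their neighbours. Dll3 is a related ligand that mostly stays inside the cell and does not activate receptors. Hes6 is a Hes relative that is known to act against Hes1 and to be switched on during neuron formation.

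The promoters of 4 members are shown first, because each of them was highest in a neural cell type and held a match to the letters searched. The windows of Notch1, Notch2 and Notch3, also highest in neural types, held none. Each window covers 250 bases before the transcript start and 50 after it, 5′ to 3′ on the strand of the gene, from RefSeq on GRCm38.p6. Capitals mark matches, found by script, to GTGGGAA, letters bound by RBPJ, searched on both strands (Hes5), and to CAGCTG, an E-box of the kind that proneural factors bind, which reads the same on both strands (Dll1, Dll3 and Hes6). The Hes5 window lies at chr4:154960673-154960972 on the plus strand, that of Dll1 at chr17:15376883-15377182, that of Dll3 at chr7:28301736-28302035 and that of Hes6 at chr1:91413989-91414288, the last 3 on the minus strand.
Hes5: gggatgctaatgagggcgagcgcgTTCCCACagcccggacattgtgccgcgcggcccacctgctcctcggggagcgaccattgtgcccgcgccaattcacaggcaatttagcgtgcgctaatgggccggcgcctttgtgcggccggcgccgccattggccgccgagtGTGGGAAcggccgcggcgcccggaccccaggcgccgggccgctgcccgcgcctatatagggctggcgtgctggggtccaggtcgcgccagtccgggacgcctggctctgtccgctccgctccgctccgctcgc
Dll1: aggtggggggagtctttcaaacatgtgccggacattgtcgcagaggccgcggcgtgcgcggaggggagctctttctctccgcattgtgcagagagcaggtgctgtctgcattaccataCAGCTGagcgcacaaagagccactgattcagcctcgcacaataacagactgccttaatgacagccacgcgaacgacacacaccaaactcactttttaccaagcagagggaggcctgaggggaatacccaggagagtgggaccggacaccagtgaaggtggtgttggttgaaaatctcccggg
Dll3: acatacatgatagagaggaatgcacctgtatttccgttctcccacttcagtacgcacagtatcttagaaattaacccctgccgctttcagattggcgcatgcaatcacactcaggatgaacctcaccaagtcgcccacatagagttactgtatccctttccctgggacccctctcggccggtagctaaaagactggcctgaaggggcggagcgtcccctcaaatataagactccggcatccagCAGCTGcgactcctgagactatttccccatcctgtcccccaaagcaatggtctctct
Hes6: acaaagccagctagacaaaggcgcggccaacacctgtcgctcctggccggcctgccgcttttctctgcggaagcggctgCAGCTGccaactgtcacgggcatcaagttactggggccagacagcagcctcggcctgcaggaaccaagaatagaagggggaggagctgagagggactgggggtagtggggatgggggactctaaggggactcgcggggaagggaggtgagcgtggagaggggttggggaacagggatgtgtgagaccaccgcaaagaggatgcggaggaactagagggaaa

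The Hes5 window held GTGGGAA on opposite strands, beginning 226 and 83 bases before the transcript start. This start, at chr4:154960923, lies inside the annotated gene, which begins at chr4:154960626, and so do both matches. The printed windows of Dll1, Dll3 and Hes6 are set at the 5′ end of their genes. Of the 9 members with a window, Hes5 was the 1 that held GTGGGAA, which 7.25% of 27025 genes held in a window (6.38% of 32851 windows). CAGCTG began 132 bases before the start of Dll1, 7 before that of Dll3 and 171 before that of Hes6, and Jag1 also held it, so 4 of 9 members did against 18.3% of all genes. A second Hes6 window held CAGCTG too, which made 5 of the 11 windows of members against 16.3% of all windows. These matches describe letters in a short window and say nothing of binding. Hes1 had a locus but no promoter window, so it was not searched.

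The 4 suspensions together held 5678 annotated cells in 16 cell types. The total was 16052917 to 19160116 gene UMIs per suspension, with a median of 10880 to 13267 per cell, and no barcode was shared between suspensions. Of these, 12 types were deep, with a median of 10898 to 29076 gene UMIs per cell. The other 4 (Endodermal Progenitor, Foregut, Hepatocyte and Midgut) were shallow, with a median of 722 to 1674, and their mitochondrial share was 23% to 55.9% of UMIs. Checked against marker genes, Neuroectoderm/Glia held the highest level of 4 neuron genes (73.3 UMIs per 10000 gene UMIs) and little of 4 glia genes (0.146), and cells annotated Foregut held 6.49 of 4 neural progenitor genes and no UMI of 4 gut genes. Cells annotated Hepatocyte held 0.0167 of 4 liver genes and 8.81 of the mesenchyme genes, cells annotated Midgut 0.0248 of the gut genes and 16.4 of the neuron genes, and cells annotated Endodermal Progenitor 0.225 of the gut genes and 15.7 of the erythroid genes (3.83 to 39.5). Chondrocyte cells held 5.22 of 4 chondrocyte genes, less than Gut Mesenchyme/Amniotic Mesoderm (6.68), and 18.9 of the mesenchyme genes. In Ependymal Cell 4 roof or floor plate and ependymal genes were at 34.6, 8.21, 21 and 3.28 in F0_8, F0_9, F1_1 and F1_mix. These names are kept as the authors gave them. Because types were assigned by clustering the same cells on the same genes, levels are set side by side between types with no test.

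Levels below are UMIs per 10000 gene UMIs, summed over the cells of a type, and ranges are over the 4 suspensions. A 3′ UMI library captures transcripts unequally, so levels are compared between cell types for a gene and not between genes. In all types together the members held from 320 UMIs (Jag2) to 8075 UMIs (Hes6), and the most UMIs in 1 cell ranged from 5 (Jag2) to 68 (Hes6). Erythrocytes, which should lack the pathway, held 0 to 2 UMIs of each member, where 3 counts would be a level of 0.0193. Erythroblasts held up to 47 UMIs of Notch2 (0.109) and 95 UMIs of Hes6 (0.219) and at most 12 of any other member.

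**Figure D1:**
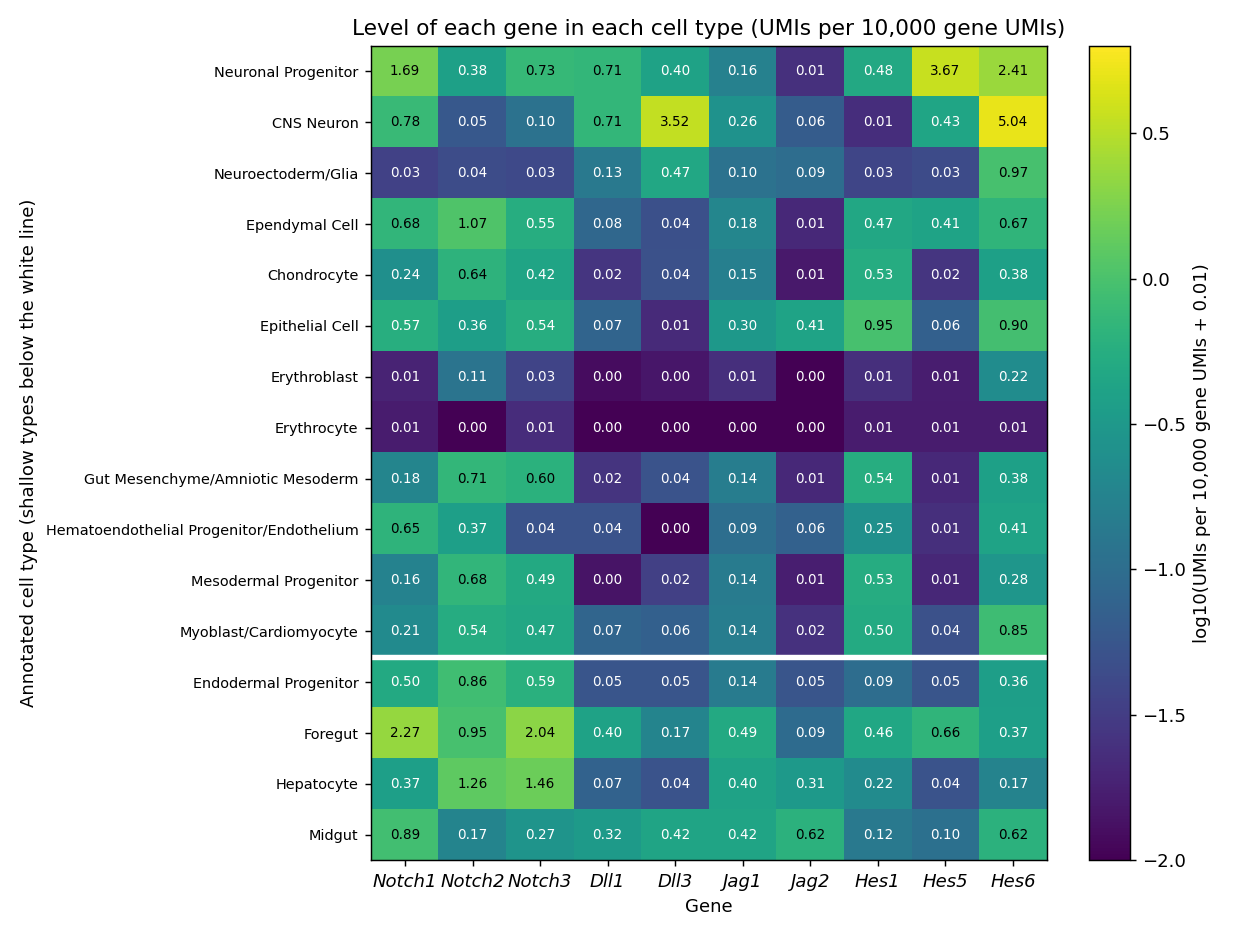
Level of each gene (columns) in each annotated cell type (rows) as UMIs per 10,000 gene UMIs, summed over the suspensions, with colour on a log10 scale after adding 0.01. Hes5 peaks in Neuronal Progenitor (3.67), Dll3 (3.52) and Hes6 (5.04) peak in CNS Neuron, and among the 4 shallow types below the white line Foregut stands high for Notch1 (2.27) and Notch3 (2.04).

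The receptors divided the neural types from each other. Notch1 was highest in Neuronal Progenitor cells, at 1.64 and 1.83 in the founders F0_8 and F0_9 and at 1.74 and 1.59 in F1_1 and F1_mix. Every one of these values lay above those of all 11 other deep types. CNS Neuron cells followed at 0.775 (range 0.590 to 0.886), which overlapped with Ependymal Cell (0.680), itself overlapping with the Hematoendothelial type (0.648). In Neuroectoderm/Glia cells, which carried the most neuron transcripts, Notch1 had 15 UMIs, a level of 0.0252 (95% interval 0.0141 to 0.0416, counting error only).

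Notch2 was lowest among the neural types in neurons. Ependymal Cell held the highest level, with 0.977 and 0.970 in the founders and 1.04 and 1.29 in F1_1 and F1_mix, above all other deep types in every suspension. Its roof or floor plate and ependymal genes were lowest in F1_mix (3.28), where Notch2 was highest, and their part was not tested. Gut Mesenchyme/Amniotic Mesoderm (0.713), Mesodermal Progenitor (0.680) and Chondrocyte (0.643) came next, and their ranges overlapped in that order. CNS Neuron (0.0491) and Neuroectoderm/Glia (0.0353) held far less. Notch3, known for its role in the cells around vessels, was spread more evenly. Its level of 0.735 in Neuronal Progenitor (0.626 to 0.844) overlapped with 0.601 in Gut Mesenchyme/Amniotic Mesoderm (0.548 to 0.696), and 8 of the 11 other deep types lay wholly below it. CNS Neuron again held little, at 0.103.

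Of the ligands, Dll1 and Dll3 were highest in neural types and Jag2 in epithelium. Dll1 measured 0.363, 0.823, 0.970 and 0.698 in CNS Neuron cells of F0_8, F0_9, F1_1 and F1_mix. In Neuronal Progenitor cells it measured 0.829, 0.724, 0.505 and 0.791. The 2 types overlapped fully, and without F0_9 or without F1_1 the order turned, with 0.705 against 0.672 and 0.783 against 0.643 in favour of Neuronal Progenitor. The next type, Neuroectoderm/Glia, reached 0.126.

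Dll3 was the ligand most concentrated in 1 type. CNS Neuron cells held 2150 of its 2960 UMIs, at 2.75 and 2.79 in F0_8 and F0_9 and at 3.88 and 4.55 in F1_1 and F1_mix. All 4 suspensions exceeded every value in the other deep types. Neuroectoderm/Glia (0.471) and Neuronal Progenitor (0.396) overlapped with each other, a factor of 7.47 between CNS Neuron and the higher of them.

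Jag1 had no clear peak. Its level in Epithelial Cell was 0.302 (0.221 to 0.355) and in CNS Neuron 0.260 (0.16 to 0.338), and each pair of neighbours among the 12 deep types overlapped. Jag2 measured 0.301, 0.454, 0.455 and 0.395 in Epithelial Cell in F0_8, F0_9, F1_1 and F1_mix, a type in which 4 epithelial markers reached 15.5. Neuroectoderm/Glia followed with 0.0891 (0.0579 to 0.131), a factor of 4.61 lower.

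The Hes genes separated further. In Neuronal Progenitor cells Hes5 measured 3.61 and 4.22 in the 2 founders and 3.53 and 3.45 in F1_1 and F1_mix, and this type held 3110 of its 3600 UMIs. It was lower by a factor of 8.46 in CNS Neuron (0.433, range 0.199 to 0.534), which overlapped with Ependymal Cell (0.411). Neuroectoderm/Glia held 0.0336. Hes1 had its highest level outside the neural types, in Epithelial Cell, at 0.763, 0.977, 0.954 and 1.07, above all other deep types, and stood between 0.482 and 0.543 in Gut Mesenchyme/Amniotic Mesoderm, Mesodermal Progenitor, Chondrocyte, Myoblast/Cardiomyocyte and Neuronal Progenitor. In CNS Neuron it had 8 UMIs, a level of 0.0131 (95% interval 0.00565 to 0.0258).

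Hes6 was higher in CNS Neuron than in Neuronal Progenitor. CNS Neuron cells held 4.31 and 4.82 in the 2 founders and 5.53 and 5.47 in F1_1 and F1_mix. Neuronal Progenitor cells held 2.46, 2.33, 1.52 and 3.23, wholly below, and Neuroectoderm/Glia cells 0.967 (0.897 to 1.07). Epithelial Cell (0.903) and Myoblast/Cardiomyocyte (0.846) overlapped with the last, and in both F0_8 was high, at 1.71 and 1.35. In Myoblast/Cardiomyocyte 4 muscle genes were also high in F0_8 (7.15, against 0.987 to 2.41 in the other suspensions). In Epithelial Cell 4 neuron genes (1.73, against 0.428 to 1.19) and 4 proneural genes (1.06, against 0.0824 to 0.211) were high in F0_8. The part of these genes in the Hes6 levels was not tested.

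**Figure D2:**
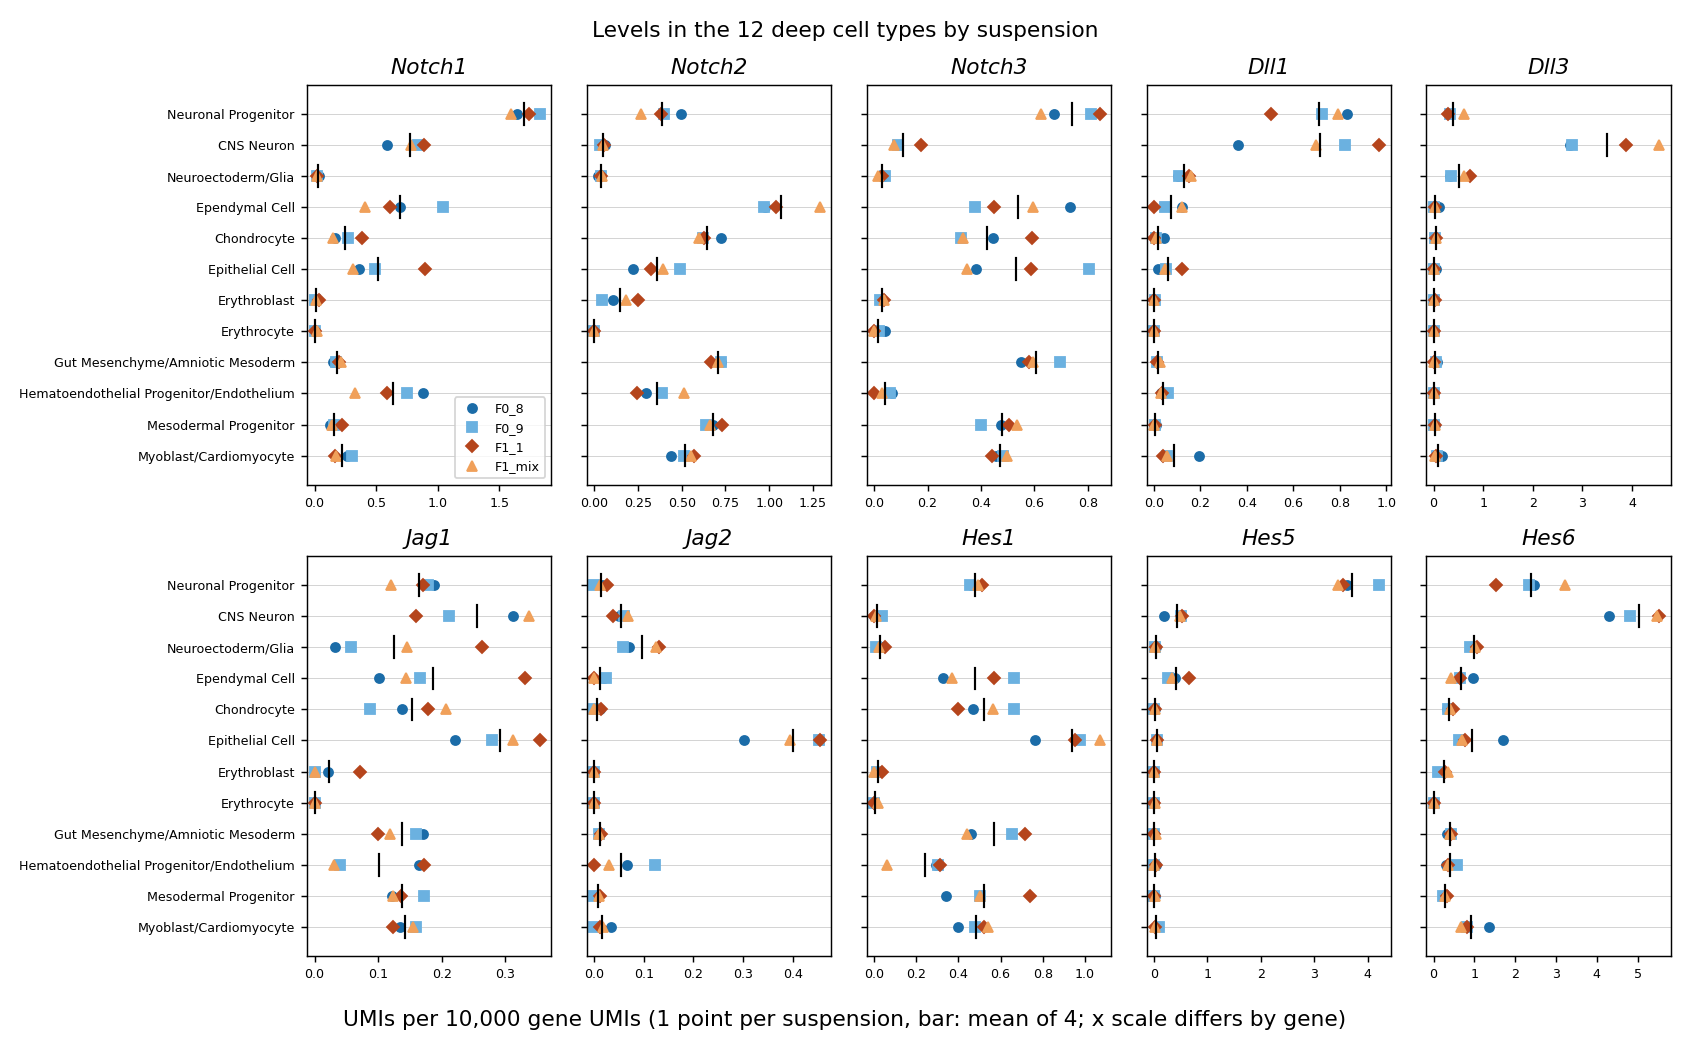
Level of each gene (UMIs per 10,000 gene UMIs, x axis, scaled per gene) in the 12 deep cell types (y axis), with 1 point per suspension and a bar at the mean of the 4. The 4 points of Hes5 in Neuronal Progenitor and of Dll3 and Hes6 in CNS Neuron stand clear of the other types, while those of Dll1 in these 2 types overlap.

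Shares of cells with a UMI gave the same picture when each cell was thinned to 5000 gene UMIs, which left out 57 of 4309 cells of the deep types and 1328 of 1369 cells of the shallow ones. Hes5 was seen in 58.4% of Neuronal Progenitor cells (Clopper-Pearson 95% interval 54.3% to 62.4%), 8.93% of CNS Neuron cells and 1.43% of Neuroectoderm/Glia cells. Notch1 was seen in 53.7%, 24.5% and 0.613% of the same types, and Dll3 in 14.4%, 66.2% and 20.2%. Dll1 was seen in 21.4% of Neuronal Progenitor and 21.0% of CNS Neuron cells, so that most cells of either type showed none at this depth. In erythroblasts, with a median of 29076 gene UMIs against 13388 in Neuronal Progenitor, the thinned share was 0% for 6 members, between 0.704% and 4.23% for Hes5, Notch3 and Notch2, and 10.6% for Hes6. Unthinned, the shares in Neuronal Progenitor were 73.9% for Hes5, 80.1% for Notch1 and 34.2% for Dll1, and in CNS Neuron 82.1% for Dll3 and 78.8% for Hes6.

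The 4 shallow types differed from the deep ones in the levels of most members. Outside mitochondrial genes, their summed level was 1.6 for Notch3 against 0.414 over the deep types, 1.25 against 0.451 for Notch2, 1.01 against 0.451 for Notch1, 0.507 against 0.150 for Jag1 and 0.394 against 0.0389 for Jag2. It was lower than over the deep types for Hes6 (0.394 against 1.23), Hes5 (0.197 against 0.546), Dll3 (0.173 against 0.449) and Hes1 (0.292 against 0.4), and for Dll1 it was 0.215 against 0.194. Per 10000 gene UMIs with mitochondrial genes counted, cells annotated Foregut held the highest level of all 16 types for Notch1 (2.27, from 79 UMIs), Notch3 (2.04, from 71 UMIs) and Jag1 (0.488), cells annotated Hepatocyte for Notch2 (1.26) and cells annotated Midgut for Jag2 (0.619, from 25 UMIs). Outside mitochondrial genes the highest type was the same for 4 of these 5, at 2.82, 2.54, 0.608 and 0.822 for Notch1, Notch3, Jag1 and Jag2, but for Notch2 it was Endodermal Progenitor (1.74). The part that depth, mitochondrial share or cell identity plays in these values was not tested. The shallow types were left out of the orders above for this reason.

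Barcodes that were assigned to no suspension and held 1 to 100 gene UMIs, a measure of free RNA, carried 1.94 UMIs per 10000 of Hes6, 0.713 of Hes5, 0.532 of Dll3 and 0.425 of Notch1, and every member was found there, with 28 to 581 UMIs. The part of free RNA in the low levels of a member in a cell type was not tested.

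Within a neural type, cells that carry a ligand can be set against those that do not, which asks whether ligand, receptor and target transcripts meet in the same cells. Cells were thinned to 5000 gene UMIs, so that depth was equal, and divided by a UMI of the ligand. A cell without a UMI may still hold the transcript. Over 4 suspensions an exact sign permutation test cannot go below 0.125, so the direction in each suspension is given instead of a p.

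In Neuronal Progenitor cells, 126 cells with a Dll1 UMI stood against 463 without. Dll3 was at 0.971, 0.903, 1.2 and 1.7 with Dll1 in F0_8, F0_9, F1_1 and F1_mix, and at 0.226, 0.311, 0.156 and 0.365 without. Hes6 was at 5.90 against 1.90 over all suspensions, higher in 4 of 4. Mfng, an enzyme that adds sugars to Notch receptors, was at 1.44 against 0.479, also higher in 4 of 4. The summed level of 4 neuron genes was 9.25 against 4.34.

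The targets parted. Hes1 was at 0.171, 0.323, 0.3 and 0.4 in cells with a Dll1 UMI and at 0.491, 0.466, 0.516 and 0.571 in those without, lower in 4 of 4 suspensions. The values with Dll1 rested on 19 Hes1 UMIs in all. Nrarp, a feedback inhibitor that Notch signalling switches on, was at 0.952 against 1.28, Hey1 at 0.222 (14 UMIs) against 0.341 and Dtx4 at 0.492 against 0.704, each lower in 4 of 4. Hes5 stood the other way, at 5.14, 5.74, 4.50 and 4.10 with Dll1 and 3.19, 4.0, 3.47 and 3.59 without. The share of cells with a Hes5 UMI was 57.9% and 58.5%, so the difference lay in UMIs per cell. Lfng was at 0.365 against 0.328, higher in 3 of 4. Notch1 was at 2.02 against 1.74 and higher in 3 of 4, while Notch3 was at 0.492 against 0.773 and Notch2 at 0.349 against 0.419, each lower in 3 of 4.

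The same cells were also divided by Dll3. The 85 Neuronal Progenitor cells with a Dll3 UMI held Hes6 at 8.26 against 1.83, Notch3 at 0.353 against 0.774, Notch2 at 0.188 against 0.440 and Hes1 at 0.188 against 0.516, each in 1 direction in 4 of 4 suspensions. In those 85 cells Notch2 and Hes1 had only 8 UMIs each, with none of Notch2 in F1_1 and none of Hes1 in F0_8. Hes5 was at 4.19 against 3.77, higher in 3 of 4, while a smaller share of cells with Dll3 had a Hes5 UMI (44.7% against 60.7%). Neuron genes were at 15.4 against 3.70, and progenitor genes at 17.7 against 24.8. The 40 cells with a Jag1 UMI held Hes6 at 1.45 against 2.86 and Dll3 at 0.150 against 0.492, lower in 4 of 4, and Hes1 at 0.55 against 0.463, lower in 3 of 4. These cells were only 8 to 13 per suspension, and their Dll3 was 3 UMIs, with none in F0_8 or F1_1. Their neuron genes were at 2.90 against 5.57, lower in 4 of 4. A Jag1 UMI was found in 4.76% of cells with Dll1 and 7.34% of those without, 6 cells holding both.

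Cells with a Hes5 UMI, 344 of 589, held Nrarp at 1.58 against 0.694, Dtx4 at 0.797 against 0.465 and Lfng at 0.395 against 0.253, higher in 4 of 4 suspensions for each, and Hey1 at 0.378 against 0.229, higher in 3 of 4. Their Dll3 was at 0.320 against 0.678, lower in 4 of 4, and their Hes1 was at 0.465 against 0.473, higher in 2 of 4. Neuron genes were at 3.77 against 7.67, lower in 4 of 4, and progenitor genes at 25.8 against 20.9, higher in 3 of 4.

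In CNS Neuron cells, Dll1 marked another division. The 108 cells with a Dll1 UMI held Notch1 at 0.842, 1.94, 2.0 and 1.66, and the 407 without held 0.356, 0.673, 0.667 and 0.482. Hes6 was at 9.61 against 3.77 and Nrarp at 0.426 against 0.108, both higher in 4 of 4 suspensions. Hes5 was at 1.11 against 0.295, higher in 3 of 4 and at 0 in F0_8. The same cells held fewer transcripts of 4 neuron genes, 32.4 against 61.3, and more of 4 progenitor genes, 9.65 against 3.09. Dll3 was present in 341 of 515 cells, which held Hes6 at 5.23 against 4.55, higher in 3 of 4 suspensions, and Notch1 at 0.798 against 0.747, higher in 2 of 4. Their Dll1 was at 0.827 against 0.644 and their progenitor genes at 4.88 against 3.66, both higher in 4 of 4, and their neuron genes at 53.6 against 58.5, lower in 4 of 4. In Neuroectoderm/Glia, 30 of 489 cells had a Dll1 UMI and 99 a Dll3 UMI. Hes6 was seen there in 30% of cells with Dll1 and 37.9% without, and in 32.3% with Dll3 and 38.7% without. Dll3 was seen in 20% of cells with Dll1 and 20.3% without, so the meeting of these transcripts was not found in that type. Counted over Neuronal Progenitor and CNS Neuron, 3 ligands and the 9 other members, 15 of 54 contrasts, or 27.8%, went in 1 direction in all 4 suspensions. The same count over all genes with at least 200 UMIs gave 17.4%. These shares are not fully alike, since among the members a pair of ligands such as Dll1 and Dll3 is read in both directions.

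**Figure D3:**
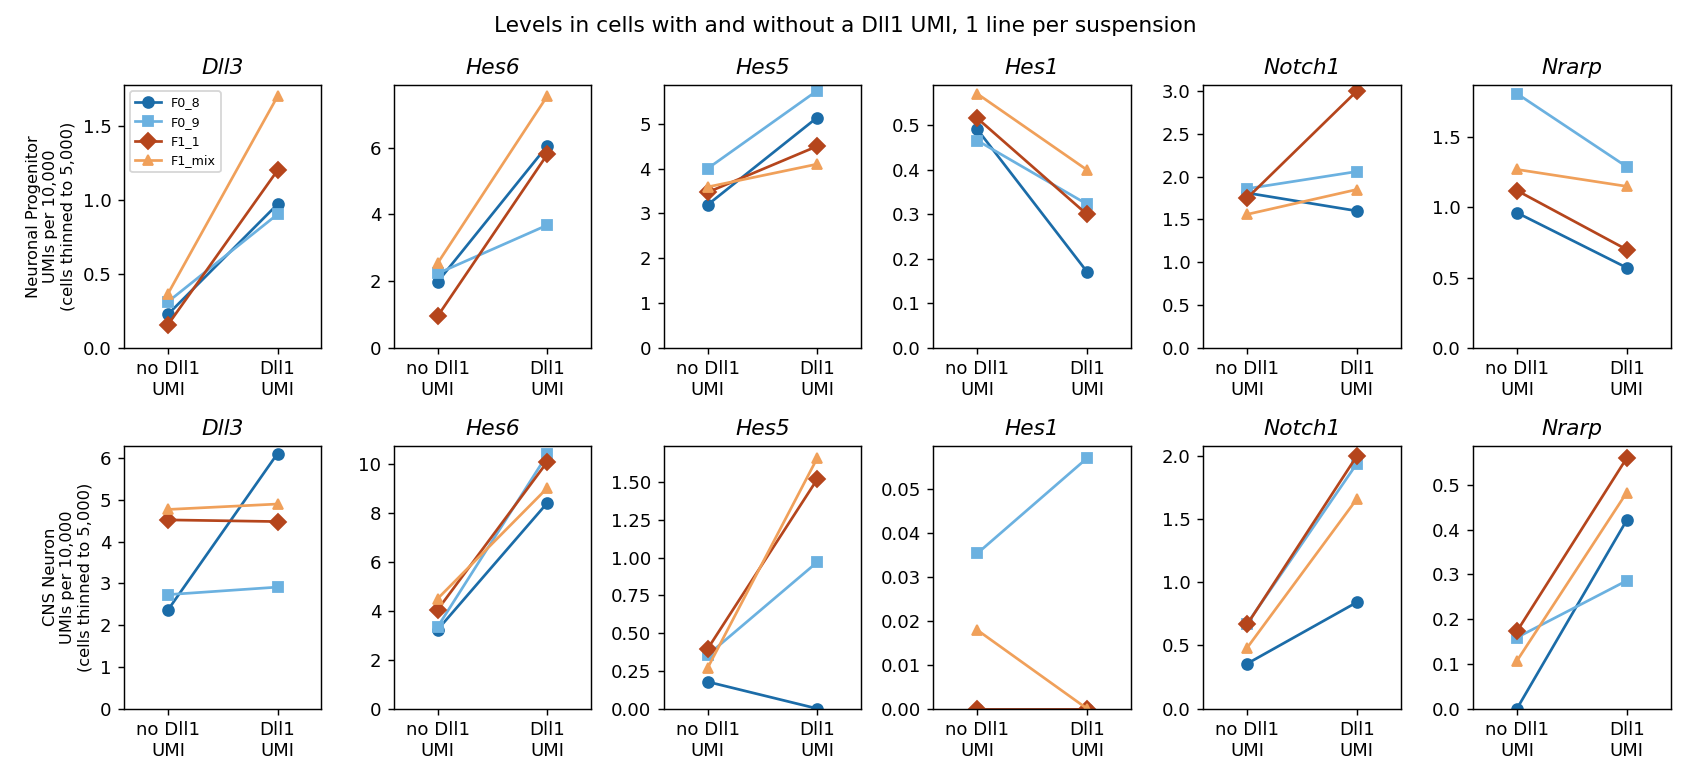
Levels (UMIs per 10,000, cells thinned to 5,000 gene UMIs) in Neuronal Progenitor cells (top) and CNS Neuron cells (bottom) without and with a Dll1 UMI, with 1 line per suspension. In Neuronal Progenitor, Dll3, Hes6 and Hes5 are higher with Dll1 and Hes1 and Nrarp lower in all 4 suspensions, and in CNS Neuron Notch1, Hes6 and Nrarp are higher in all 4.

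Founders were compared with the F1 generation in each of 13 cell types with at least 20 cells in every suspension (edgeR quasi-likelihood test on UMIs summed per suspension, 2 against 2, p adjusted by Benjamini-Hochberg over all genes of the type). With 2 suspensions in each generation, the generation cannot be told apart from other differences between these embryos, and a lower level over a type can come from fewer cells with the transcript or from less of it in each cell. Of 71 pairs of a member and a cell type that could be tested, 2 passed an adjusted p of 0.05, or 2.82%, both lower in founders. Over all genes, 746 of 99241 pairs passed, or 0.752%. The median log2 fold of the members was -0.05 and that of all pairs 0, and of the 746 calls 258 were lower in founders.

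Both calls were Dll3. In CNS Neuron cells its level was 2.75 and 2.79 in the founders and 3.88 and 4.55 in F1_1 and F1_mix, so the groups did not overlap (log2 fold founders minus F1 -0.63, SE 0.10, edgeR adjusted p = 0.0149). In Neuroectoderm/Glia cells it was 0.339 and 0.347 against 0.727 and 0.620 (log2 fold -0.97, SE 0.17, edgeR adjusted p = 0.0425). In Neuronal Progenitor cells it was 0.308 and 0.323 against 0.286 and 0.618, which overlapped. Without F0_8 neither call held, at edgeR adjusted p = 0.314 and 0.0794, and the second was also lost without F1_1 (0.150), without F1_mix (0.109) and with DESeq2 (0.354), while the log2 folds stayed between -0.50 and -0.73 and between -0.85 and -1.09. Marker levels moved in the same types, with 4 neuron genes at 54.7 and 51.8 in founders and 56.5 and 59.6 in F1 in CNS Neuron, and at 65.9 and 71.2 against 81.2 and 80.2 in Neuroectoderm/Glia, and their part in the Dll3 difference was not tested.

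The members nearest to a call beside these were Jag1 in Neuroectoderm/Glia, at 0.0323 and 0.0579 in founders against 0.263 and 0.146 (edgeR adjusted p = 0.0787), and Dll3 in Gut Mesenchyme/Amniotic Mesoderm, at 0.0700 and 0.0488 against 0.00716 and 0.0142 (edgeR adjusted p = 0.128), the latter from 38 UMIs in all. Of the 37 other genes of the pathway, 33 could be tested in 272 pairs, and 2 passed, or 0.735%, close to the 0.752% of all genes. They were Maml2 and Maml3, mastermind coactivators that join RBPJ. Maml2 rose in founders in Neuronal Progenitor, from 1.75 and 1.81 in F1 to 2.53 and 2.52 (log2 fold 0.47, SE 0.08, edgeR adjusted p = 0.0433). In this type 4 neural progenitor genes were at 23.7 and 26.8 in founders against 22.4 and 21 in F1. Maml3 fell in Gut Mesenchyme/Amniotic Mesoderm, to 2.87 and 3.06 from 3.60 and 4.01 (log2 fold -0.39, SE 0.07, edgeR adjusted p = 0.0350). There 4 chondrocyte genes were at 7.95 and 7.58 in founders against 5.07 and 4.81 in F1. The part of these markers in the Maml2 and Maml3 differences was not tested.

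**Figure D4:**
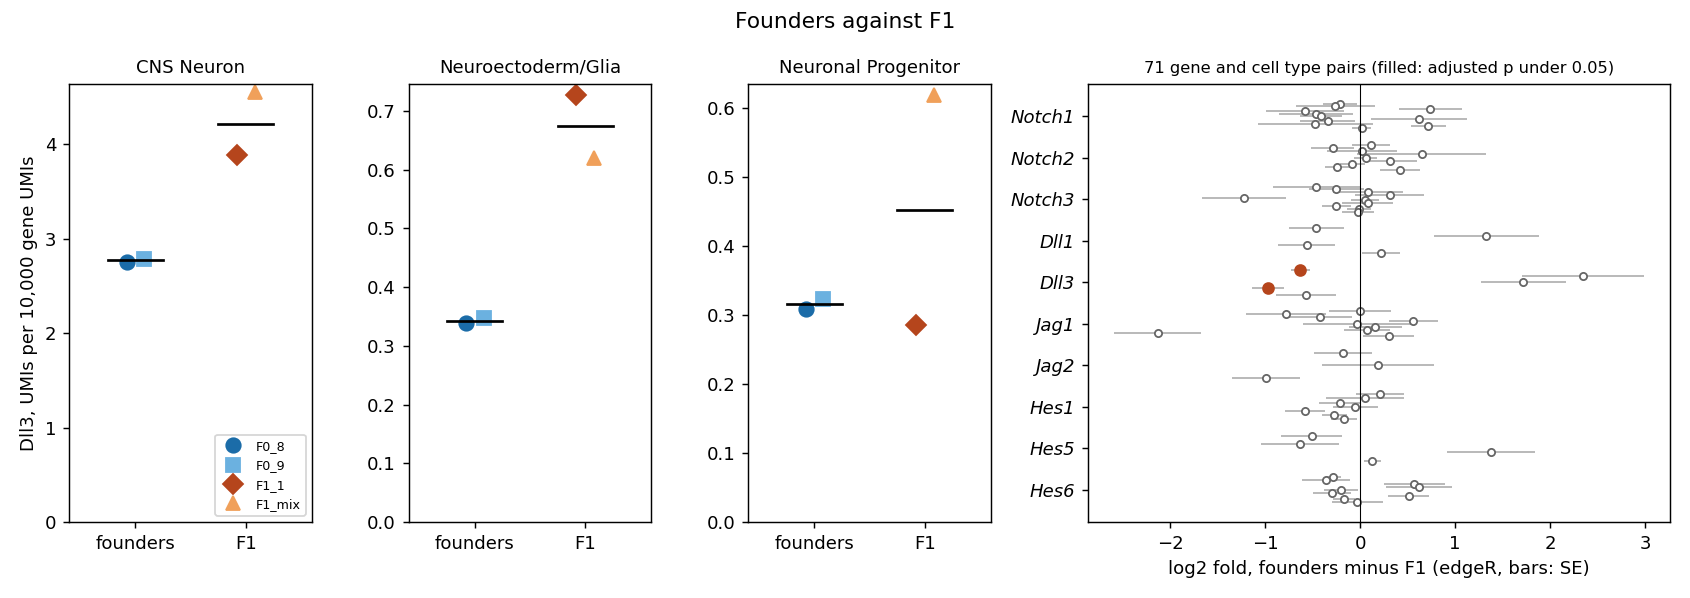
Left, Dll3 level (UMIs per 10,000 gene UMIs) in 3 neural types, with 1 point per suspension and a bar at the mean of each generation. Right, log2 fold of founders minus F1 with SE for the 71 pairs of a gene and a cell type, where the 2 filled points, both Dll3 and both below 0, passed an adjusted p of 0.05.

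Among the 37 other pathway genes, those that were highest in the same type as a member were found in 4 types. Nrarp (1.18), Dtx4 (0.680) and Lfng (0.330) were highest in Neuronal Progenitor, as Notch1 and Hes5 were, and Nrarp and Lfng lay there wholly above the next type (0.240 and 0.132 in Epithelial Cell). Mfng (1.41), Mib1 (1.74), a ubiquitin ligase that ligand-bearing cells need to signal, and Numbl (0.782), related to the Notch inhibitor Numb, were highest in CNS Neuron, as Dll3 and Hes6 were, wholly above the next type. Fbxw7 (1.01), which marks the cut receptor for breakdown, did the same, while Maml3 (6.42), Itch (1.55) and Ncstn (0.625), a subunit of the cutting enzyme, were highest in CNS Neuron with overlap. Hes2 and Hes3, also highest in Neuronal Progenitor, had only 17 and 24 UMIs there. Maml2 (2.56), Numb (1.27), Psen2 (0.373), another subunit of the cutting enzyme, and the target genes Heyl (0.241) and Hey2 (0.132, from 24 UMIs) were highest in Ependymal Cell, as Notch2 was, each with overlap with the next type. In Epithelial Cell, where Jag1, Jag2 and Hes1 were highest, Hey1 (0.322) overlapped with Neuronal Progenitor (0.318) and Maml1 (0.264) with Mesodermal Progenitor (0.25). By the type of their highest level, 8 of the 37 fell in the Hematoendothelial type, 7 in CNS Neuron, 5 each in Neuronal Progenitor, Ependymal Cell and Neuroectoderm/Glia, and 2 in Epithelial Cell. Of all 12045 genes with at least 200 UMIs, 12.5%, 9.98%, 7.8%, 7.26%, 18.8% and 6.72% were highest in these types, in the same order. The 37 were not filtered this way and include Dll4 (48 UMIs) and Hes7 (78), highest in the Hematoendothelial type. They also include Hes2 (17) and Hes3 (38).

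The Hematoendothelial type joined endothelial and macrophage cells, as its markers showed (5.94 for 4 endothelial and 36.7 for 4 macrophage genes), so its levels were also read after dividing cells by which set had more UMIs, a division chosen after the values were seen. The 26 cells with more endothelial UMIs held Notch1 at 1.14 (95% interval 0.846 to 1.49) against 0.426 (0.306 to 0.578) in the 49 with more macrophage UMIs. Jag1 was at 0.267 from 12 UMIs against 0.0104 from 1 UMI, and Jag2 at 0.200 from 9 UMIs against 0. Dll4, the endothelial Notch ligand, was at 0.223 from 10 UMIs against 0, and Notch4 at 0.401 from 18 UMIs against 0. In the macrophage part, 3 counts would be a level of 0.0312. Notch2 was lower in the endothelial cells, at 0.134 against 0.478.

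The genes most like each member, by Pearson's r of log2 levels over the 12 deep types, are named as description, since the types share a library and were built from these genes. Hes5 was nearest to Fezf2 (0.96), Sox3 (0.96), Fgf15 (0.95), Ttyh1 (0.95) and Sox1 (0.94). Dll1 stood near Zbtb18 (0.94), Wscd1, Nuak2 and Prox1 (0.93 for each). Notch1 was nearest to Fzd10 (0.95), Nes (0.92), Ccnd1 (0.92), BC024978 and Emid1 (0.91 for both), and Dll3 to Gsg1l (0.97), Phf21b (0.96), Dpysl4, Srrm4 and Rgs8 (0.95 for each). Hes1 stood with Yap1, Ccn1 and Ajuba (0.98 for each), Gja1 (0.97) and Hmga2 (0.96).

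Among the other members, Notch2 was nearest to Zfp820 (0.98), Txndc5, Mesd, Slc25a15 and Plscr1 (0.97 for each), and Notch3 to Pip4p2 (0.99), Aif1l, Lrig1, Gas1 and Plce1 (0.97 to 0.98). Jag1 was nearest to Nr2f6, Sh3bp4, Sec22a, Ctnnb1 and Nhsl1 (0.98 for each), Jag2 to Dennd1c (0.92), Insyn2b, Galnt18, Abcg1 and Hip1r (0.87 to 0.90), and Hes6 to Ap4s1, Traf6, Chd7, Ccnc and Thoc5 (0.95 to 0.97). Between members, r was 0.90 for Notch2 with Hes1, 0.88 for Notch3 with Hes1, 0.87 for Dll1 with Hes5 and with Hes6, and 0.83 for Dll1 with Dll3, Notch2 with Notch3 and Jag1 with Hes6. Ranked values kept only 6 of these 50 nearest genes and levels per suspension 21, so the lists depend on the measure.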

How the data were processed

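Single cells of 4 suspensions were measured in 1 pooled droplet library (3′ chemistry with UMIs). The deposited matrices hold UMI counts per feature and barcode that the authors made with Cell Ranger (per the file headers, release 7.2.0) on GRCm38 (mm10) with EGFP added. Suspension and cell type came from the cell table of the authors (Seurat, doublets removed by them), of which 3 columns were used and 19 were not. No correction for free RNA was applied. Genes were matched by symbol, and loci and promoters came from RefSeq (GRCm38.p6).

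Levels are summed UMIs per 10000 gene UMIs with exact Poisson 95% intervals, which, like those of shares, cover counting error only. Thinning drew 5000 gene UMIs per cell. Shallow types had a median depth below that of all cells divided by 3. Founders and F1 (grouped from the series design text) were tested with edgeR 4.0.16 in R 4.3.3, with DESeq2 1.42.0 as an alternative. The edgeR step was tested on simulated data. Likeness used log2(level + 0.01) and genes with at least 200 UMIs. Python 3.11.15 was used for the rest.

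The text names the 10 members, their 5 nearest genes, and pathway genes called between generations or peaking where a member does. A single item, and results that rest on it, are not reported here. Members and lists were chosen with earlier results of these data known. Alternatives were other depths, denominators, tests and leaving out each suspension.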

Additional observations from a re-analysis of the deposited data

Results flagged for a closer look

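Among the 71 pairs tested, 5 members had cell types in which both founder values lay above both F1 values and others in which both lay below. For each member, the type with the smallest p in each direction is given, and some had further such types. The differences between cell types were not tested, and Dll3 in CNS Neuron is the 1 call among these values. The log2 fold of founders minus F1 was 0.72 for Notch1 in Myoblast/Cardiomyocyte and -0.41 in Gut Mesenchyme/Amniotic Mesoderm. In Myoblast/Cardiomyocyte 4 muscle genes stood at 7.15 and 2.41 in F0_8 and F0_9 and at 0.987 and 1.33 in F1_1 and F1_mix, and in Gut Mesenchyme/Amniotic Mesoderm 4 chondrocyte genes stood at 7.95 and 7.58 against 5.07 and 4.81. The part of these markers in the differences given for the 2 types was not tested. For Notch2 it was 0.42 in Neuronal Progenitor and -0.24 in Myoblast/Cardiomyocyte. For Dll1 it was 1.33 in Myoblast/Cardiomyocyte, where F0_8 held 35 UMIs and the other suspensions 12 to 24, and -0.56 in Neuroectoderm/Glia. For Dll3 it was 2.35 in Gut Mesenchyme/Amniotic Mesoderm, from 23 and 11 UMIs in the founders and 1 and 3 in F1, and -0.63 in CNS Neuron. For Jag1 it was 0.56 in Gut Mesenchyme/Amniotic Mesoderm and -2.13 in Neuroectoderm/Glia, from 6 and 10 UMIs in the founders and 26 and 20 in F1. Groups did not overlap in 30 of the 71 pairs tested, or 42.3%, against 40.6% of the 99241 pairs over all genes, of which 0.752% were called.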

How the results depend on the processing

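The type with the highest level among the deep types was kept by 10 of 10 members with mitochondrial genes left out of the denominator, with suspensions weighted equally and in cells under 5% mitochondrial UMIs. Leaving out 1 suspension kept it for 8 to 10, the exceptions being Dll1 without F0_9 or F1_1 and Jag1 without F1_1 (0.287 in CNS Neuron against 0.274 in Epithelial Cell). With the 4 shallow types included, an alternative chosen after seeing the data, 5 of 10 kept it. The share of cells peaked in the same type as the level for 9 members at 5000 gene UMIs and for 8 without thinning or at 2000 or 1000. The 2 member calls between founders and F1 (edgeR) became 1 with DESeq2, 2 with its size factors and 5 with no filter, and ranged from 0 to 9 when a suspension was left out. The 0 came without F0_8, where 9 pairs had an unadjusted p under 0.05 and DESeq2 was not run, and the 9 without F0_9. F1_1 left out gave 1 call and F1_mix left out 4, and the cause was not tested. Over all genes the 746 calls of 99241 pairs became 434 with DESeq2, 736 with its size factors and 3154 of 189216 with no filter, and 511, 1585, 1422 and 1498 without F0_8, F0_9, F1_1 and F1_mix. Leaving out 1 of 2 suspensions assumes that the lone one varies like the other group. The 15 contrasts in 1 direction in every suspension were 16 at 2000 gene UMIs and 19 to 22 over 3 suspensions, where the condition is easier to meet. Of 50 nearest genes, 6 remained with Spearman's rho and 21 with levels per suspension. No paired analysis was possible because founder and F1 suspensions share no replicate number. Members had 29 to 269 UMIs each over the shallow types, which limits the precision of their levels there.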
